A study of Mus musculus with 12 samples.

Results

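The 9 genes described here make, carry and break down the monoamines dopamine, noradrenaline and serotonin: Th, Tph2, Ddc and Dbh (synthesis), Slc18a2, Slc6a3 and Slc6a4 (transport), and Maoa and Maob (breakdown). They were chosen by symbol, and all 9 were found among the 55450 genes of the count table. The table holds total RNA sequencing of 12 samples from male mice aged 7 to 9 weeks, with 3 brain and 3 liver samples from Vaultrc5+/+ animals (called flx in the sample titles and wild type here) and 3 of each tissue from Vaultrc5-/- animals (knockout). Vaultrc5 encodes a small non-coding vault RNA, and the study asked whether mice develop normally without it. The labels name no Cre driver, founder line or part of the brain, and do not say whether brain and liver samples came from the same animals.

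Monoamine neurons are few and sit in compact groups. Dopamine cell bodies lie mainly in the ventral midbrain, with further Th-positive cells in the hypothalamus and olfactory bulb, serotonin cell bodies in the raphe of the brainstem, and noradrenaline cell bodies in the locus coeruleus and medulla. Tyrosine hydroxylase (Th) and tryptophan hydroxylase (Tph2) carry out the rate-limiting first step, aromatic L-amino acid decarboxylase (Ddc) makes dopamine and serotonin, and dopamine beta-hydroxylase (Dbh) turns dopamine into noradrenaline. The vesicular transporter (Slc18a2) loads all of these amines into vesicles, the plasma membrane transporters Slc6a3 (dopamine) and Slc6a4 (serotonin) take them back up, and monoamine oxidases A and B (Maoa, Maob) oxidise them at the outer mitochondrial membrane in many cell types, liver cells included.

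The sequences just upstream of 3 of these genes are shown because these members separate the tissues in opposite directions: Th and Tph2 had almost no reads in liver, while Ddc was far higher in liver than in brain and has alternative first exons for neural and non-neural tissue. Each line is the 250 bases before a RefSeq transcription start (GRCm38.p6), read 5′ to 3′ on the gene's strand, which is minus for all of them. RefSeq entries were found for 8 of the 9 members, all but Maob, and Ddc had entries for 2 starts. The windows are chr7:142899996-142900245 for Th, chr10:115185023-115185272 for Tph2, and chr11:11898145-11898394 and chr11:11890409-11890658 for the first and second Ddc start. Capitals mark the cAMP response element TGACGTCA in Th, the TATA box TATAAA in Tph2 and the HNF1 motif GTTAA, on the opposite strand, in the first Ddc window.
Th: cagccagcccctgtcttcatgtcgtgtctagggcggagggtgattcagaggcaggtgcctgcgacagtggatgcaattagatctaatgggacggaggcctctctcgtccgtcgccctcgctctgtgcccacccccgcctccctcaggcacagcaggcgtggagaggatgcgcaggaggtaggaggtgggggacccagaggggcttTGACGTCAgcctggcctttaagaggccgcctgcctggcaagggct
Tph2: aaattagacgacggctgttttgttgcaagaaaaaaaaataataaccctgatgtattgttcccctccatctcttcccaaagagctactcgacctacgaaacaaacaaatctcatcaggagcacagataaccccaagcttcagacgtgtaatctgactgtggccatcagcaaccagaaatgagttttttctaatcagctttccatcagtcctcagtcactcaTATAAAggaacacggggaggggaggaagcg
Ddc, first start: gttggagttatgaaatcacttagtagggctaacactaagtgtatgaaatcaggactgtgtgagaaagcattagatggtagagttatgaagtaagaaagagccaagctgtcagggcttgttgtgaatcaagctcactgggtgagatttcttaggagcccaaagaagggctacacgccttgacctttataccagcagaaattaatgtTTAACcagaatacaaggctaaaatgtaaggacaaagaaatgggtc
Ddc, second start: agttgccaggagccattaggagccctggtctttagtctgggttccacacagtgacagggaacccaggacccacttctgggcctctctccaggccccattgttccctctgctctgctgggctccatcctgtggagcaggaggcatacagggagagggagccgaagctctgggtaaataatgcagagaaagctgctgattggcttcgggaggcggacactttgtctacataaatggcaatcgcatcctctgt
Both strands were searched for these 3 motifs and for AGATAA, read by factors of the Gata family, and no matches overlapped. TGACGTCA occurred in the Th window alone among the members, ending 37 bases before the start, and in 1.55% of all 32851 windows of this length. TATAAA occurred in Tph2 (24 bases before the start) and, on the opposite strand, in the first Ddc window (62 bases before the start), against 12.4% of all windows. GTTAA occurred only in the first Ddc window among the members and in 21.7% of all windows. AGATAA occurred in the windows of Tph2 and Slc18a2 and in 9.99% of all. These matches describe letters and say nothing of what binds there, and counts per gene cannot tell which Ddc start was used.

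Library totals were 14844971 to 18567381 expected counts in brain and 23247449 to 27155480 in liver. Vaultrc5 had 33, 39 and 48 counts in wild-type liver replicates 1, 2 and 3, 4, 1 and 4 in wild-type brain, and 0 in every knockout library. All 7 brain markers (Snap25, Syt1, Rbfox3, Gad1, Slc17a7, Gfap and Mbp) were counted in every brain library, at a summed 4280 to 5770 CPM against 27.5 to 35.8 CPM in liver. CPM, the depth-scaled count, is taken throughout over TMM library sizes of all 12 libraries together. The 7 liver markers summed to 57700 to 96600 CPM in liver and to 0.706 to 442 CPM in brain, where Ttr, also made by choroid plexus, had up to 8856 counts. A gene with 3 counts, taken as the floor under which no fold is given, lies at 0.124 to 0.150 CPM in brain and 0.148 to 0.167 CPM in liver.

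The brain libraries differed in markers of brain regions, and these values stand beside the brain results on these genes. The 5 cerebellum markers (Pcp2, Gabra6, Cbln3, Barhl1 and Ppp1r17) summed to 669, 0.746 and 136 CPM in wild-type brains 1, 2 and 3 and to 615, 0.981 and 259 CPM in knockout brains 1, 2 and 3. The 5 hindbrain markers (Hoxb3, Hoxb5, Hoxa4, Hoxd3 and Slc6a5) summed to 14.6, 0 and 125 CPM in the wild-type and 9.52, 0.0892 and 4.13 CPM in the knockout brains. Wild-type brain 3 thus had the highest hindbrain sum, with 299 counts of Hoxb5 against 0 to 3 in the other brains, and all 5 of these markers were at 0 in wild-type brain 2. Olfactory bulb markers (6 genes, Calb2 and Eomes among them) ran from 10.7 to 86.1 CPM, choroid plexus markers (6) from 3.15 to 499 CPM, pituitary markers (6) from 0.0414 to 7.83 CPM and striatum markers (6) from 175 to 569 CPM. Cortex and hippocampus markers (5) varied less, from 189 to 342 CPM. Of the 7 hypothalamus markers, Oxt, Hcrt, Pmch and Agrp were near 0 in all brains, with at most 1.25 counts in any library. With Avp, Trh and Pomc, the list summed to 0.894, 0.995 and 6.30 CPM in wild-type brains 1, 2 and 3. In knockout brains 1, 2 and 3 it summed to 1.99, 0.803 and 0.836 CPM, so wild-type brain 3 was highest. In such bulk samples, fewer cells of a type and less RNA per cell cannot be told apart.

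**Figure D1:**
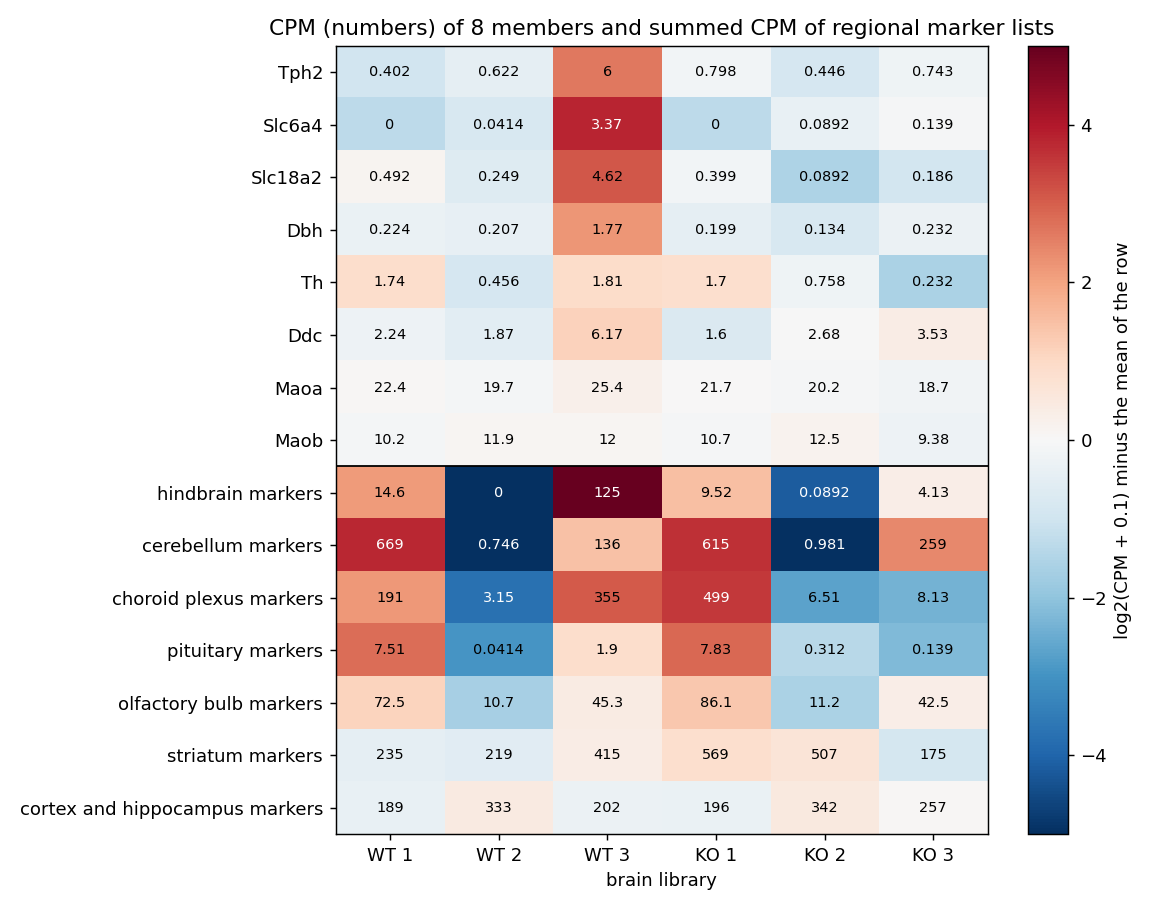
CPM of 8 members (upper rows; Slc6a3, at 1 to 8 counts, is left out) and summed CPM of regional marker lists (lower rows) in the 6 brain libraries. Colour is log2(CPM + 0.1) minus the mean of the row. Wild-type brain 3 is highest for Tph2, Slc6a4, Slc18a2, Dbh and the hindbrain markers, and Maoa and Maob are nearly flat.

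Maob and Ddc were higher in liver, Maoa was higher in brain, and Th, Tph2, Dbh and Slc6a3 had no reads, or 2 reads in a single library, in liver. Slc18a2 and Slc6a4 had low counts in both tissues. Of all 18850 genes tested between wild-type brain and liver with edgeR's quasi-likelihood test, 78.6% passed an adjusted p of 0.05 (43.9% of genes higher in brain and 34.7% higher in liver), so passing is common in this comparison. With library totals in place of TMM the split moved from 8275 higher in brain and 6542 higher in liver to 11635 and 3997, and the median log2 difference of all genes from 0.21 to 1.05. The directions given below for Maoa, Maob and Ddc held under both scalings, but their sizes moved: with library totals the log2 difference, brain minus liver, was 2.34 for Maoa, -3.16 for Maob and -3.48 for Ddc in wild type, and 2.02, -3.10 and -4.11 in knockout. The comparison within knockout samples, which shares no library with the wild-type comparison, had 18785 genes tested and 78.7% called (43.5% higher in brain and 35.2% higher in liver). Groups that did not overlap were as common, at 82.4% of genes in wild type and 82.5% in knockout.

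Maob (ENSMUSG00000040147.14, chromosome X, 16709282 to 16817366, minus strand, GRCm38) was the member with the highest level in liver. Its liver levels were 203, 148 and 186 CPM in wild-type replicates 1, 2 and 3, and 185, 112 and 195 CPM in the knockouts. Brain levels were 10.2, 11.9 and 12.0 CPM in wild-type and 10.7, 12.5 and 9.38 CPM in knockout replicates. The tissues did not overlap, with a highest brain value of 12.5 CPM and a lowest liver value of 112 CPM. The log2 difference, brain minus liver, was -4.00 ± 0.16 (SE) in wild type, or 16.0-fold (edgeR adjusted p = 3.23e-07), and -3.97 ± 0.25 in knockout, or 15.6-fold (edgeR adjusted p = 4.37e-06).

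Its paralog Maoa (ENSMUSG00000025037.6, chromosome X, 16619698 to 16687818, plus strand), which prefers serotonin and noradrenaline as substrates, ran the other way. Its levels were 22.4, 19.7 and 25.4 CPM in wild-type brain and 21.7, 20.2 and 18.7 CPM in knockout brain. Its liver values were 8.15, 7.38 and 8.02 CPM in wild-type and 8.58, 7.29 and 10.5 CPM in knockout replicates. Every brain library lay above every liver library. The log2 difference was 1.50 ± 0.14 (SE) in wild type, or 2.82-fold (edgeR adjusted p = 3.09e-05), and 1.15 ± 0.16 in knockout, or 2.22-fold (edgeR adjusted p = 0.000355).

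Per kb of annotated exon, a scale on which genes can be compared, the balance of the oxidases therefore differed between the tissues. Maob was at 0.682, 0.898 and 0.708 times the Maoa level in wild-type brains and 0.738, 0.921 and 0.751 times in knockout brains. In liver it was at 37.2, 30.0 and 34.7 times the Maoa level in wild type and 32.2, 22.9 and 27.9 times in knockout. The ratio was below 1 in 6 of 6 brains and above 20 in 6 of 6 livers, and the genotypes overlapped in both tissues. Between libraries of the same replicate number, the knockout ratio was lower in each liver pair and higher in each brain pair. The ratio was not tested between genotypes.

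Ddc (ENSMUSG00000020182.16, chromosome 11, 11814101 to 11898144, minus strand) was the second member with high liver levels. It was at 77.5, 80.8 and 45.1 CPM in wild-type livers and 108, 94.7 and 38.4 CPM in knockout livers, so that replicate 3 was lowest in each genotype. Brain levels were 2.24, 1.87 and 6.17 CPM in wild-type and 1.60, 2.68 and 3.53 CPM in knockout replicates. The brain minus liver log2 difference was -4.33 ± 0.48 (SE) in wild type, or 20.1-fold (edgeR adjusted p = 8.37e-05), and -5.00 ± 0.48 in knockout, or 31.9-fold (edgeR adjusted p = 4.39e-05). Leaving out wild-type brain 3, the brain with the most Ddc, moved the wild-type value to -5.11.

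The hydroxylases that commit amino acids to the pathway had almost no reads in liver. Th (ENSMUSG00000000214.11, chromosome 7, 142892752 to 142931128, minus strand) had 39, 11 and 42 counts in wild-type brain, 34, 17 and 5 in knockout brain and 0 in all 6 livers. Against a liver floor of 3 counts per library its mean brain level was at least 8.53-fold higher in wild type and at least 5.51-fold higher in knockout, or at least 3.05-fold without knockout brain 1. Tph2 (ENSMUSG00000006764.8, chromosome 10, 115078641 to 115185022, minus strand) had 9, 15 and 139 counts in wild-type brain and 16, 10 and 16 in knockout brain. In liver it had 0 in wild type and 0, 0 and 2 in knockout. Its wild-type brain level was at least 14.9-fold above the liver floor, and at least 3.27-fold without wild-type brain 3. In knockout the livers lay under the floor with 2 counts in all, both from replicate 3, against 42 in brain, and no fold is given.

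Dbh (ENSMUSG00000000889.8, chromosome 2, 27165233 to 27183200, plus strand) had 5, 5 and 41 counts in wild-type brain, 4, 3 and 5 in knockout brain and 0 in every liver. Its wild-type brain level was at least 4.68-fold above the liver floor with wild-type brain 3 and at least 1.37-fold without it. Slc6a3 (ENSMUSG00000021609.6, chromosome 13, 73536747 to 73578672, plus strand) had 1, 1 and 8 counts in wild-type brain, 3, 4 and 2 in knockout brain and 0 in every liver. The Slc6a3 means of 0.144 and 0.140 CPM lie at or under the floor, so no fold is given, and the transporter that marks dopamine terminals was hardly sampled in these brains.

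The other transporters had reads in both tissues. Slc18a2 (ENSMUSG00000025094.8, chromosome 19, 59260896 to 59296012, plus strand) had 11, 6 and 107 counts in wild-type brain and 8, 2 and 4 in knockout brain. In liver it had 12, 11 and 3 in wild type and 7, 5 and 3 in knockout. The wild-type brain minus liver log2 difference of 1.94 ± 1.11 (SE) did not pass (edgeR adjusted p = 0.143). It was -0.37 without wild-type brain 3, and 2.79 with library totals, where the edgeR adjusted p was 0.0473. Exons of Slc18a2 overlap those of Gm29261 on the other strand. Slc6a4 (ENSMUSG00000020838.12, chromosome 11, 76998603 to 77032340, plus strand) had 0, 1 and 78 counts in wild-type brain and 0, 2 and 3 in knockout brain, against 7, 5 and 2 in wild-type and 10, 19 and 8 in knockout liver. Of the 6 brains, 5 thus had fewer Slc6a4 counts than most livers did. Slc6a4 was not tested between tissues because it missed the filter on low counts.

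**Figure D2:**
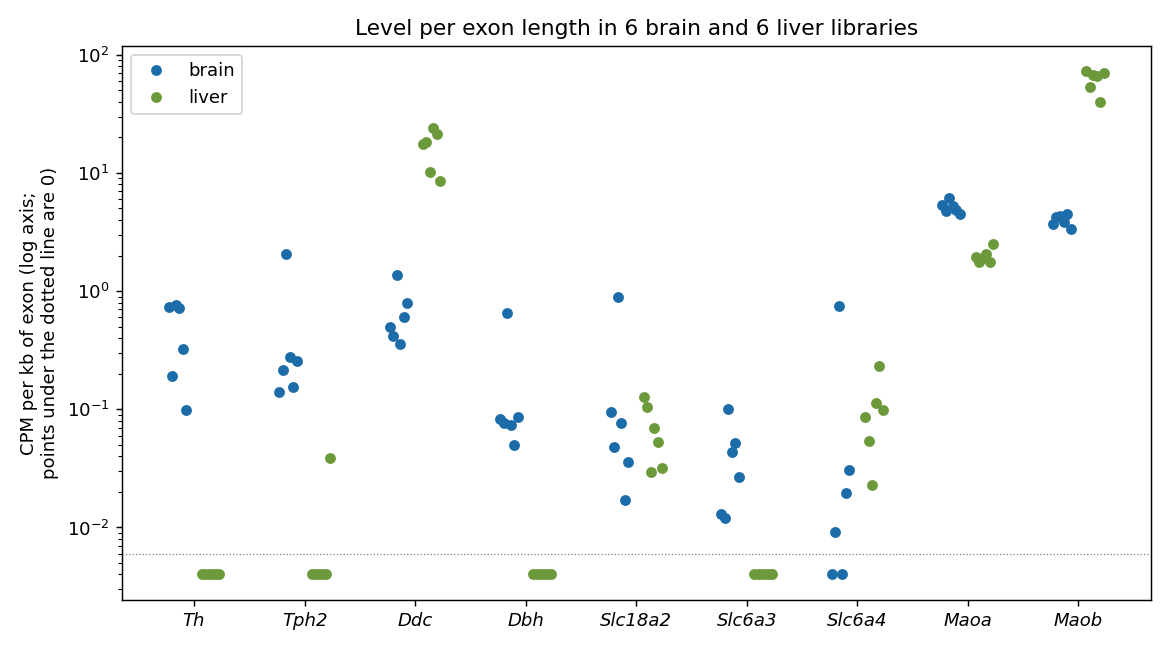
CPM per kb of exon (log axis) for the 9 members, with a point for each of 6 brain and 6 liver libraries; points under the dotted line are 0. Maob and Ddc lie higher in every liver than in any brain, Maoa the reverse, and Th, Dbh and Slc6a3 are at 0 in all livers.

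Ordered by mean CPM per kb over the 6 brains, the members ran Maoa (5.13), Maob (3.99), Ddc (0.675), Tph2 (0.522), Th (0.472), Slc18a2 (0.192), Dbh (0.171), Slc6a4 (0.134) and Slc6a3 (0.0411). The ranges of Maoa (4.48 to 6.10) and Maob (3.36 to 4.48) met at their ends, and both oxidases lay above the highest Tph2 value of 2.08. From Ddc down to Slc6a3 each neighbour overlapped the next, and 3 neighbouring pairs turned without wild-type brain 3. Without that library Tph2 was at 0.209 and Th at 0.413 CPM per kb, Slc18a2 at 0.0541 and Dbh at 0.0740, and Slc6a4 at 0.0119 and Slc6a3 at 0.0293. Maoa, Maob and Ddc kept the first 3 places, at 4.93, 3.92 and 0.534 CPM per kb. In liver the order was Maob (61.5), Ddc (16.6), Maoa (2.00), Slc6a4 (0.101) and Slc18a2 (0.0692), with Tph2 at 0.00642 and the other members at 0. The first 3 of these did not overlap, at 40.0 to 72.7, 8.61 to 24.2 and 1.75 to 2.52, while the ranges of Slc6a4 and Slc18a2 did. The order of these transporters turned with genotype: Slc18a2 was above Slc6a4 in each wild-type liver (0.128, 0.104 and 0.0297 against 0.0862, 0.0543 and 0.0228 CPM per kb) and below it in each knockout liver (0.0692, 0.0529 and 0.0318 against 0.114, 0.232 and 0.0979). These values rest on 2 to 19 counts per library, with 3 against 2 in wild-type liver 3. Both genes missed the low-count filter between genotypes in liver, and that turn was not tested.

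**Figure D3:**
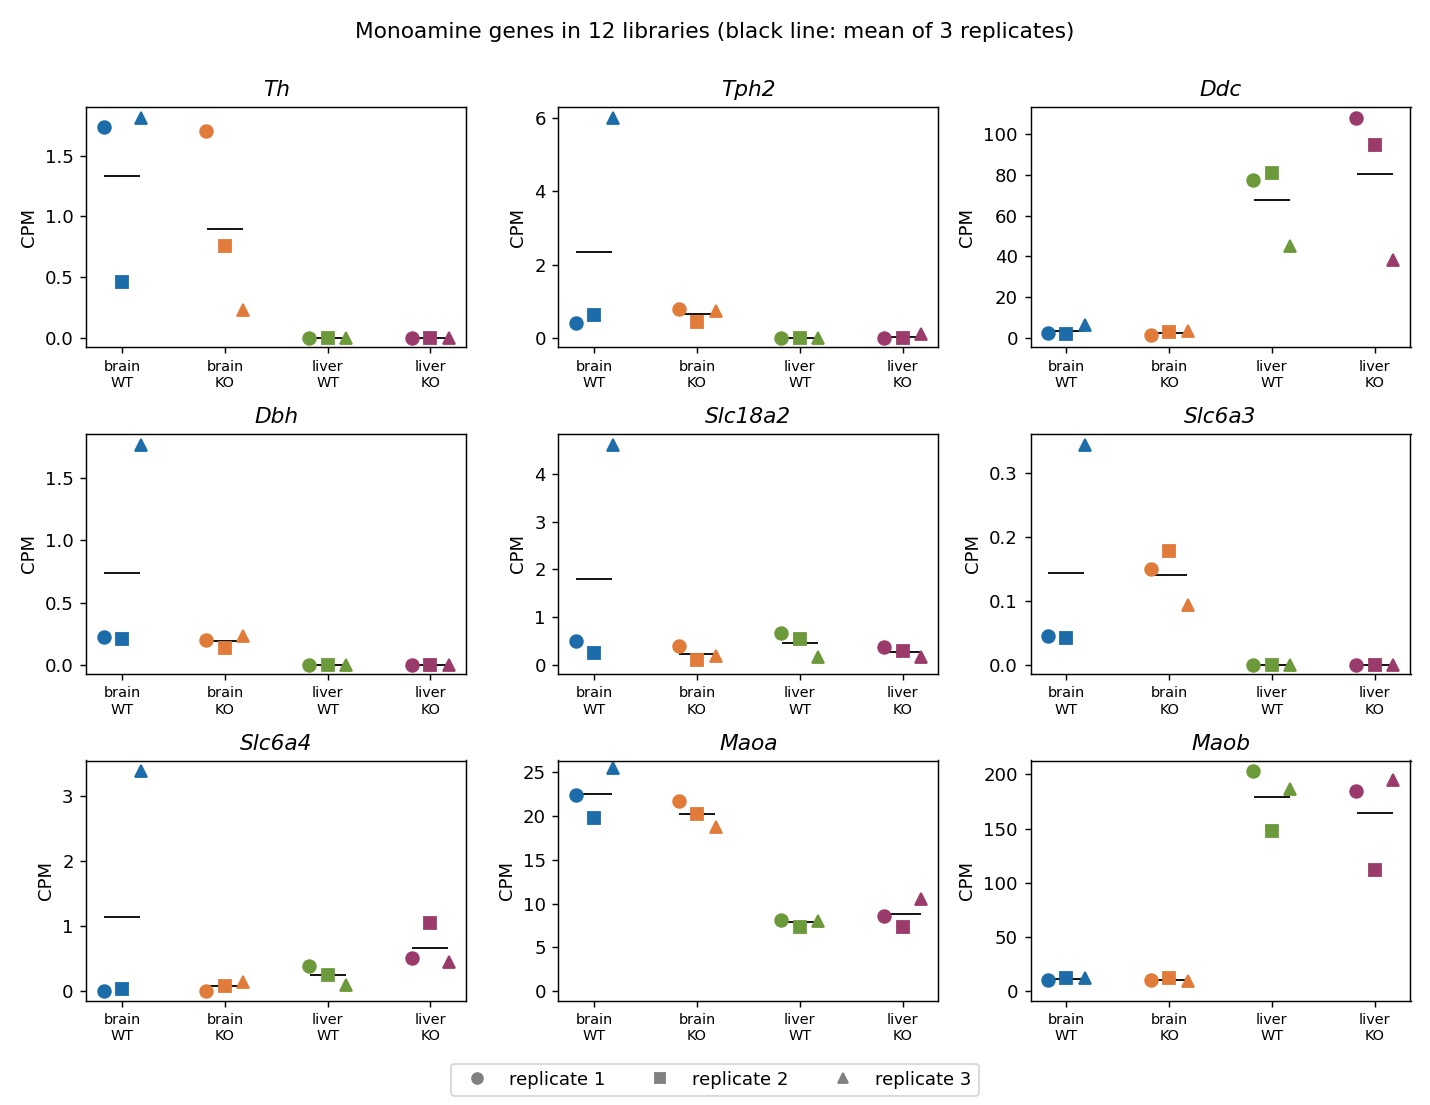
CPM of each member in the 12 libraries; symbols give the replicate number and the black line is the mean of 3. Wild-type brain 3 is the single high point for Tph2, Dbh, Slc18a2 and Slc6a4, and the genotypes overlap in liver for Ddc, Maoa and Maob.

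Within brain, most of the reads of the serotonin and noradrenaline genes came from wild-type brain 3. That library held 17.3% of the summed effective library size of the 6 brains. It held 92.9% of the Slc6a4 counts (78 of 84, Wilson 95% interval 85.3% to 96.7%), 77.5% of Slc18a2 (107 of 138), 67.8% of Tph2 (139 of 205) and 65.1% of Dbh (41 of 63). Its share was 35.2% for Ddc (143 of 406) and 28.4% for Th (42 of 148), and 20.6% for Maoa and 18.7% for Maob. These intervals cover counting error only, since such reads carry no molecular identifiers and are not independent.

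Tph2 stood at 6.00 CPM in wild-type brain 3 against 0.402 to 0.798 CPM in the other 5 brains, 7.52 times the next highest. Slc18a2 was at 4.62 CPM against 0.0892 to 0.492 CPM, and Dbh at 1.77 against 0.134 to 0.232 CPM. Slc6a4 was at 3.37 CPM, where no other brain had more than 3 counts. Of 8 genes that mark serotonin neurons, 4 were also highest in wild-type brain 3: Fev, their terminal selector, with 13 counts against 0 in the other 5, Lmx1b, a regulator of serotonin and midbrain dopamine neurons, with 71 against 4 to 12, Gata3 with 35 against 0 to 9, and Htr5b with 42 against 6 to 25. The other 4 were not highest there, and the summed list, led by Htr1a, a receptor that many forebrain neurons carry too, did not share the pattern. Its sums were 12.3, 21.2 and 20.5 CPM in wild-type brains 1, 2 and 3 and 10.8, 16.7 and 15.8 CPM in knockout brains, so that wild-type brain 2 was highest. Of 6 noradrenaline neuron genes, 5 had a count in any brain, and all 5 were highest in wild-type brain 3. They summed to 3.71 CPM there, against 0 to 1.02 CPM in the other brains. Of 12 dopamine neuron genes, 11 had a brain count and 4 were highest in that library. The part that sampled regions play in these values was not tested.

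Th did not share this pattern. It was at 1.74 and 1.81 CPM in wild-type brains 1 and 3 and 1.70 CPM in knockout brain 1, and at 0.456 CPM in wild-type brain 2 and 0.758 and 0.232 CPM in knockout brains 2 and 3. The 3 brains with more Th were those with more choroid plexus marker signal (191, 355 and 499 CPM against 3.15 to 8.13) and pituitary marker signal (7.51, 1.90 and 7.83 CPM against 0.0414 to 0.312). They also had the highest olfactory bulb marker sums (72.5, 45.3 and 86.1 CPM), with knockout brain 3 close behind at 42.5 CPM. Their hindbrain marker sums (14.6, 125 and 9.52 CPM) were the highest too, against 0 to 4.13 CPM. Cortex and hippocampus sums were lower in these brains (189 to 202 CPM against 257 to 342). Cerebellum and striatum sums did not separate them. The 12 genes that mark midbrain dopamine neurons gave no single level. They summed to 90.9, 59.6 and 121 CPM in wild-type brains 1, 2 and 3 and 97.1, 56.1 and 101 CPM in knockout brains, led per kb by Nr4a2, Aldh1a1 and Drd2 (8.75, 6.69 and 2.63 CPM per kb), which other brain cells also express. Pitx3 had at most 4 counts in any brain, Foxa2 at most 1 and Foxa1 0, while Foxa1 and Foxa2, also hepatocyte regulators, had at least 310 counts in every liver. The part these regions play in the Th values was not tested.

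Genes with the most similar profile over the 6 brains were named by the root mean square difference (RMS) of log2(CPM + 0.5), each gene centred on its own mean, among 15962 candidates. Nearest to Tph2 were Gabrq (RMS 0.22), a GABA-A receptor subunit, Ahnak2 (0.28) and AW551984 (0.28), and nearest to Slc6a4 were AW551984 (0.27), Dgkk (0.28) and Ahnak2 (0.28). Gabrq was at 5.05 CPM in wild-type brain 3 and at 0.511 to 0.798 CPM in the others. Nearest to Th were Pbx3 (0.21), a TALE homeodomain factor, Lbp (0.23) and Cyp27a1 (0.24). Pbx3 was at 13.6, 6.80 and 15.9 CPM in wild-type and 14.4, 7.62 and 6.64 CPM in knockout brains. Slc6a3 was too low for its nearest genes, Usp29 (0.05), Nfe2l2 (0.07) and Acad12 (0.08), to be informative. Slc6a4 had 0 to 3 counts in every brain but wild-type brain 3, so its matches, like those of Tph2, rest mainly on that library. All these profiles come from 6 libraries that also differ in regional markers.

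No member passed the test between genotypes in brain. Th, Tph2, Ddc, Maoa and Maob passed the filter on low counts and were tested, and Dbh, Slc18a2, Slc6a3 and Slc6a4 were not. Among 18075 genes, 0 (0%) had an edgeR adjusted p under 0.05, 122 (0.675%) had an unadjusted p under 0.05, and DESeq2 called 0. The log2 change, knockout over wild type, was -0.17 ± 0.13 (SE) for Maoa and -0.08 ± 0.15 for Maob, which varied little. It was -0.60 ± 0.76 for Th, from a wild-type mean of 1.34 ± 0.764 CPM and a knockout mean of 0.895 ± 0.741 CPM (SD, n = 3). For Ddc it was -0.41 ± 0.53 and for Tph2 -1.84 ± 1.04, with 1.00 as the adjusted p in edgeR throughout. All 5 had overlapping groups; 4.19% of the genes tested in brain had groups that did not overlap.

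The sign of the Tph2 and Ddc values rested on wild-type brain 3. Without that library the log2 change was 0.36 for Tph2 and 0.34 for Ddc, and -0.30 for Th, whose value ran from -1.43 without knockout brain 1 to -0.14 without knockout brain 3. Maoa and Maob moved to -0.07 and -0.03. For the 4 members under the filter no fold is given. With no filter beyond 1 count their edgeR adjusted p was 1.00 each, and their groups overlapped. Setting wild-type brain 3 aside, Slc18a2 had 11 and 6 counts in wild type against 8, 2 and 4 in knockout, and Dbh 5 and 5 against 4, 3 and 5. Slc6a4 had 0 and 1 against 0, 2 and 3, and Slc6a3 1 and 1 against 3, 4 and 2, so these transporters had no excess in the other wild-type brains.

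**Figure D4:**
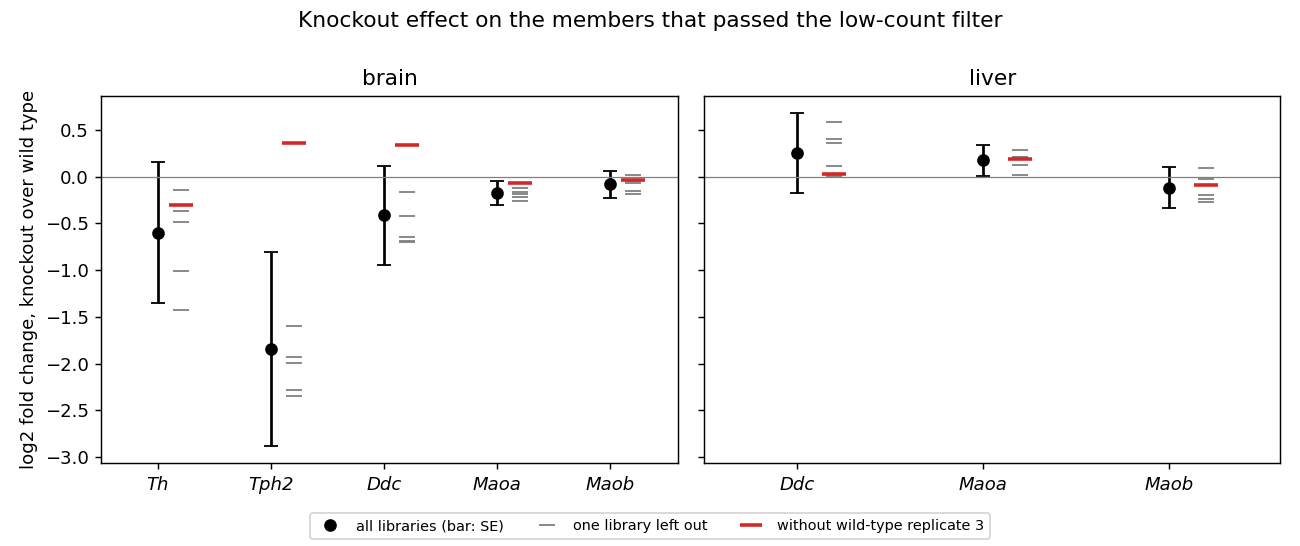
Log2 fold change, knockout over wild type, of the members that passed the filter on low counts in brain (left) and liver (right). Black points are fits on all libraries with SE bars, and dashes are fits with a single library left out, red for wild-type replicate 3, without which the brain values of Tph2 and Ddc turn from -1.84 and -0.41 to 0.36 and 0.34.

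In liver, too, no member passed the test between genotypes. Ddc, Maoa and Maob were tested, and Ddc changed by 0.26 ± 0.43 (SE) on the log2 scale, Maoa by 0.18 ± 0.16 and Maob by -0.12 ± 0.22, with an edgeR adjusted p of 0.992 for each. Mean levels were 67.8 ± 19.7 and 80.4 ± 36.9 CPM for Ddc, 7.85 ± 0.407 and 8.78 ± 1.60 CPM for Maoa, and 179 ± 28.0 and 164 ± 45.6 CPM for Maob, in wild type and knockout (SD, n = 3). Of 15329 genes, 0 (0%) passed in edgeR, 536 (3.50%) had an unadjusted p under 0.05, and DESeq2 called 10 (0.0652%). Fitted with the replicate number as a block, edgeR called 2 genes, none of them a member. Slc6a4, at 0.391, 0.246 and 0.103 CPM in the wild-type and 0.517, 1.05 and 0.444 CPM in the knockout livers, was the single member whose genotype groups did not overlap in liver. It was too low for the filter, and the fit without a filter gave 1.44 ± 0.63 (SE) with an edgeR adjusted p of 0.898. For scale, 9.86% of the genes tested in liver had groups that did not overlap. Platelets carry this transporter, and the 6 platelet and mast cell markers summed to 5.22 to 5.95 CPM in wild-type livers and 5.58 to 6.82 CPM in knockouts, with 4 or 5 of the 6 counted in each and the missing ones always among Cpa3, Mcpt4 and Tpsb2. Of this list 3 were tested, 2 had a positive log2 change and 0 were called, with a median of 0.58. Tph1, the tryptophan hydroxylase of the periphery, was at 0 in every liver. The 5 red cell markers summed to 106 to 150 CPM in wild-type and 134 to 160 CPM in knockout livers. All 5 had a positive log2 change (median 0.95), 2 of them with an unadjusted edgeR p under 0.05 and 0 called, and the 4 endothelial markers were positive too (median 0.13, with 1 at an unadjusted p under 0.05 and 0 called). Their part in the Slc6a4 values was not tested.

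The knockout effect was not shown to differ between tissues for any of the 6 members tested; Dbh, Slc6a3 and Slc6a4 missed the filter. In the interaction fit on all 12 libraries 0 of 20141 genes (0%) passed in edgeR, 489 (2.43%) had an unadjusted p under 0.05 and DESeq2 called 1 (0.00496%). With the replicate block edgeR called 2, none of them a member. The difference between the effects, liver minus brain, was 0.33 ± 0.20 (SE) for Maoa, -0.05 ± 0.29 for Maob and 0.65 ± 0.70 for Ddc on the log2 scale, all at an edgeR adjusted p of 1.00. It was 2.25 ± 1.53 for Slc18a2 (edgeR adjusted p = 1.00) and 0.00 without wild-type brain 3. Th and Tph2 also had an edgeR adjusted p of 1.00, and no value is given for them because their livers were at 0 or under the floor.

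Other enzymes that feed and clear the pathway were mostly higher in liver. Of 9 genes for the tetrahydrobiopterin cofactor of the hydroxylases, all 9 were tested in wild type, 8 were higher in liver, 0 were higher in brain and Dnajc12 did not pass; in knockout all 9 were higher in liver, and 8 with library totals. Of the 8 in wild type, 7 had 10 or more counts in each brain. The median log2 difference of the 9 was -2.73 in wild type, beside 0.21 over all genes tested. Qdpr, which regenerates the cofactor, was the most abundant of them per kb in brain (28.9 CPM per kb, 116 in liver), with a log2 difference of -1.95 ± 0.29 (SE) in wild type (edgeR adjusted p = 0.000452). Spr, the last enzyme of its synthesis, differed by -2.73 ± 0.14 (edgeR adjusted p = 1.22e-06), and Pcbd1, which recycles it, by -6.35 ± 0.30 (edgeR adjusted p = 7.30e-07). Pcbd2, its paralog, was also higher in liver. Gchfr, a regulator of the first cofactor enzyme, passed the filter through liver alone and was at 0 in wild-type brain 2.

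Of 12 further genes of amine breakdown, 11 were tested in wild type, 9 were higher in liver, Akr1b3 was higher in brain and Aoc3 did not pass, with a median log2 difference of -3.60. All 9 had 10 or more counts in each brain. Aldh2, which oxidises the aldehydes that the oxidases release, differed by -5.60 ± 0.17 (SE; edgeR adjusted p = 9.59e-08), Aldh1a1, a related dehydrogenase, by -4.74 ± 0.41 (edgeR adjusted p = 2.12e-05), and Akr1a1, an aldehyde reductase, by -1.65 ± 0.12 (edgeR adjusted p = 8.22e-06).

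Of 15 other synthesis and transport genes, 9 were tested in wild type, with 4 higher in brain and 4 higher in liver (3 with library totals). Slc7a5, a carrier of large neutral amino acids, was higher in brain by 3.19 ± 0.22 (SE) on the log2 scale (edgeR adjusted p = 5.63e-06). Slc29a4, a low-affinity monoamine transporter, was at 10.4 ± 5.68 CPM in wild-type brain (SD, n = 3) and at most 3 counts in any liver. Slc18a1, the second vesicular amine transporter, was named after its values were seen: it had 84 to 113 counts in the livers and 1 to 6 in the brains.

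Receptor genes had most of their reads in brain. Of 29 genes for dopamine, serotonin, adrenergic and trace amine receptors, 23 were tested in wild type, 19 were higher in brain and 3 were higher in liver. In knockout 18 of 22 were higher in brain (19 with library totals) and 3 higher in liver. Most of these genes passed the low-count filter through a single tissue, which fixed their direction: of the 19 in wild type, 11 were at 0 in all 3 livers, and Adra1a and Adrb1 alone had 10 or more counts in each liver. The count is therefore a description. Per kb the most abundant in brain were Adra1d (6.48 CPM per kb), Adrb1 (6.03) and Htr2a (4.75), each higher than in liver, with Adrb1 differing by 4.18 ± 0.43 (SE; edgeR adjusted p = 5.10e-05). The 3 higher in liver were all adrenergic: Adra1b by a log2 difference of -2.69 ± 0.26 (edgeR adjusted p = 3.34e-05), Adrb3 by -4.78 ± 0.29 (edgeR adjusted p = 2.67e-06) and Adra2b by -3.66 ± 0.42 (edgeR adjusted p = 0.000102). Adrb3 and Adra2b had under 10 counts in at least 1 wild-type brain and passed the filter through liver, so their direction was fixed too.

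Genes that mark the monoamine neurons themselves were also counted. Of 12 dopamine neuron genes, 6 were tested between wild-type tissues, with Nr4a2, Ret and Drd2 higher in brain and Foxa1, Foxa2 and Aldh1a1 higher in liver. Ret and Drd2 were at 0 in all 3 of these livers and Foxa1 and Foxa2 at 0 in all 3 brains, so the filter fixed their direction. Nr4a2, an orphan nuclear receptor also found in cortex, was the most abundant per kb in brain (8.75 CPM per kb; log2 difference 4.08 ± 0.23, SE; edgeR adjusted p = 2.05e-06). Of 8 serotonin neuron genes, 4 were tested: Htr1a (2.36 CPM per kb in brain, at 0 in every liver) and Gata2 (0.414) were higher in brain, Slc22a3 was higher in liver except with library totals, and Gata3 did not pass. Htr5b and Esm1, of the same list, were too low to be tested. Of 6 noradrenaline neuron genes Hand2 passed the filter, through liver alone, where it was at 3.50 CPM per kb against 0 in every brain; Gal, Calcr, Phox2a and Slc6a2 missed the filter. Background shares for all genes tested are those given above.

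None of these lists had a gene called between genotypes in either tissue. In brain 8 of 9 cofactor genes, 7 of 15 synthesis and transport genes, 12 of 12 breakdown genes and 23 of 29 receptors were tested, and 0 had an unadjusted edgeR p under 0.05. The smallest unadjusted p in each list belonged to Pts (log2 change -0.22 ± 0.12, SE), Sncg (-2.77 ± 1.30), Rnls (0.79 ± 0.42) and Adrb3 (0.63 ± 0.41). Sncg, encoding gamma-synuclein, had 263 counts in wild-type brain 3 and 9 to 17 in the other brains. Among genes of dopamine neurons it was Slc10a4 (-1.75 ± 1.26), with 86.8 counts in wild-type brain 3 and 1 to 13 elsewhere, and among those of serotonin neurons Gata2 (0.28 ± 0.27); no noradrenaline neuron gene passed the filter. In liver, for the cofactor, receptor and dopamine, serotonin and noradrenaline neuron lists in turn, it was Spr (-0.19 ± 0.09), Adra2b (-0.25 ± 0.17), Foxa1 (0.50 ± 0.36), Gata2 (0.61 ± 0.28) and Hand2 (0.05 ± 0.19), and the edgeR adjusted p was 0.992 to 0.999. Of 7 synthesis and transport genes tested in liver, 1 had an unadjusted edgeR p under 0.05, beside 3.5% of all genes tested there. The 9 cofactor, 11 breakdown and 6 receptor genes tested in liver had 0.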

How the data were processed

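Total RNA of 12 brain and liver samples was depleted of ribosomal RNA and sequenced as single-end stranded libraries, per the labels' protocols. The authors deposited expected counts per gene, not scaled and not pooled. The submitters' processing notes list cutadapt, STAR and mm10; the program that counted reads and its strand setting are not given in the sources used here. Of the values in a library, 5.06% to 5.71% were not whole, but every count of the 9 members was. All 55450 gene identifiers matched GENCODE M21 (GRCm38), which gave coordinates and exon lengths.

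Expected counts were rounded and tested in edgeR 4.0.16 (R 4.3.3) by the quasi-likelihood F-test with robust estimation, TMM, a filterByExpr filter per group that asked for a count of 10 and a total of 15, and Benjamini-Hochberg adjustment over all genes tested, with a threshold of 0.05. Each comparison of 2 groups was fitted on its own 6 libraries, and the interaction on 12. The SE is the absolute log2 change over the square root of F. The code was tested on simulated data. DESeq2 1.42.0, other scalings, no low-count filter, a replicate block and leaving out each library were the alternatives; levels without wild-type brain 3 and a Th limit without knockout brain 1 were added after seeing the data.

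In the pairing check, same-numbered liver libraries deviated together from their group means over 13531 genes (correlations 0.32, 0.32 and 0.38), so liver fits with the block are given where they change a count. Titles give the replicate numbers. Labels do not say that samples came from separate animals, so p-values measure only the spread between samples.

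The members and the gene lists were chosen with earlier results of these data known. Genes named were the members, the gene of each list with the smallest p between genotypes in each tissue, the 3 of each list with the highest level per kb in either tissue, and the 3 nearest profiles in brain of Th, Slc6a3, Slc6a4 and Tph2. Some genes that this rule names are not reported here.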

Additional observations from a re-analysis of the deposited data

How the results depend on the processing

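Over the alternatives and the fits that left out a library, 288 of 300 fitted values of single members kept their direction and their side of the threshold. Of the rest, 10 changed sign, all in fits without a single library and none of them past the threshold with all libraries; Slc18a2 in wild-type brain against liver was newly called with library totals (2.79). When single libraries were left out, the log2 change in brain, knockout against wild type, ran from -0.70 to 0.34 for Ddc, -2.34 to 0.36 for Tph2 and -0.18 to 0.02 for Maob. In liver it ran from -0.27 to 0.09 for Maob. The difference between tissues ran from -0.08 to 0.98 for Ddc and -0.20 to 0.15 for Maob, and Slc18a2 in wild-type brain against liver from -0.37 to 2.41. Tph2 in wild-type brain against liver was no longer called without the low-count filter. With livers at 0 to 2 counts, Th and Tph2 passed that filter through brain alone wherever they were tested between tissues. Their directions and calls there say nothing of stability. Values between genotypes and in the interaction lay far from the threshold in every fit, so their keeping a side of it says little. The liver count of 0 genes became 4 without the low-count filter, 10 with DESeq2 and 2 with the replicate block, and lay between 0 and 1 when a library was left out. The interaction count of 0 became 1 with DESeq2 and 2 with the replicate block. The block changed no call of a member. In brain same-numbered libraries correlated at 0.72, 0.70 and -0.03, so the numbers do not pair them by the rule used; 2 of the 3 matched their own number best, and the block gave 0 called genes there, with 406 instead of 122 at an unadjusted p under 0.05. Between tissues these correlations were -0.01 to 0.07, and the block gave 14496 genes in wild type and 14396 in knockout. Depth limits Slc6a3, Dbh, Slc6a4 and Slc18a2, which had 8 counts or fewer in most brains.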

Other observations

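Tph1, the tryptophan hydroxylase of pineal gland and gut, was highest in a different brain from Tph2. It had 4, 7 and 23 counts in wild-type brains 1, 2 and 3 and 2, 84 and 13 in knockout brains 1, 2 and 3, while Aanat and Asmt, which turn serotonin into melatonin, had 4 counts each in knockout brain 2 and at most 12 in any brain. Drd2, the dopamine D2 receptor of striatal and dopamine neurons, had 44, 52 and 241 counts in wild-type and 281, 242 and 19 in knockout brains, and the summed striatum markers were at 235, 219 and 415 CPM and 569, 507 and 175 CPM in the same order. Hdc, which makes histamine, had 5 to 40 counts in the brains and 34 to 66 in the livers. These genes were named after their values were seen.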
